A study of Homo sapiens with 60 samples.

Results

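The genes described here are 38 members of the hypoxia response and of glycolysis, chosen by name from the 60675 gene identifiers in the deposited table. They comprise 15 glycolytic enzymes, 6 genes of glucose and lactate transport or glycolytic control, and 17 targets of the hypoxia-inducible factors (HIFs) that are not glycolytic. All 38 passed the filter on low counts and were tested. Over all 60 libraries the members' mean levels had a median of 77.7 CPM (read counts scaled for the depth of each library).

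HIFs are transcription factors made of an oxygen-regulated alpha subunit and the stable partner ARNT. When oxygen is present, prolyl hydroxylases (EGLN1 and EGLN3 among them) mark the alpha subunit for destruction through the VHL ubiquitin ligase, and when oxygen or the enzymes' cofactors are short the subunit persists and binds a short core motif near its target genes. The targets include nearly every step from glucose uptake to lactate export, the angiogenic growth factor VEGFA, the pH-regulating carbonic anhydrases CA9 and CA12, collagen hydroxylases, mitophagy receptors and the EGLN3 enzyme itself.

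The study measured messenger RNA by sequencing in A549, an established human lung adenocarcinoma cell line, 24 h after exposure to 8 Korean tonic medicines or to the vehicle. Every extract was given at 20, 100 and 500 µg/mL per the sample labels, called low, medium and high here. Water was the solvent for the formulas Sibjeondaebo-tang, with 3 libraries at each dose, and Palmul-tang, with 2. Ethanol was the solvent for the single herbs Ginseng, Glycyrrhizae (licorice), Poria and Atractylodis, with 3 libraries at each dose, and for Angelicae (angelica) and Paeoniae (peony), with 1. The vehicle group had 3 libraries with 0.1% DMSO in the labels and 2% in the design text, which also gives lower doses than the labels for extracts with a low toxicity limit, so the doses serve as names. Libraries of a group are not said to come from separate cultures, so a p-value here covers the spread of these samples only, which may be technical.

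Totals were 18602484 to 29764358 counts per library. The A549 epithelial markers were present (KRT8 at 2070 to 4390 CPM), and the leukocyte and endothelial markers PTPRC, CD3E, LYZ, CDH5 and VWF were at or near 0, at most 0.0854 CPM in any library. Other markers of those lists were detected, endothelial KDR at 10.1 to 23.8 CPM and leukocyte CD14 at 1.62 to 4.03 CPM. The 6 fibroblast markers summed to 10.4 to 19.1 CPM, mostly from COL3A1 and DCN, with COL1A2 at a median of 0.0426 CPM. In such bulk samples fewer cells of a type and less RNA per cell cannot be told apart.

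Per kilobase of exon, the members spanned a wide range in the vehicle cells. GAPDH, the dehydrogenase of mid-glycolysis, stood highest at 2995 ± 74.0 CPM per kb (SD, n = 3). ENO1 (enolase; 541 ± 25.5), ALDOA (aldolase; 539 ± 32.2) and PKM (pyruvate kinase; 506 ± 33.2) followed, within each other's spread. Where an enzyme has several gene copies, 1 dominated: HK1 was at 68.8 ± 1.27 CPM per kb and the other hexokinase HK2 at 0.416 ± 0.0796, and ALDOC was at 4.44 ± 0.288 and ENO2 at 2.32 ± 0.178. Among the HIF targets CA9 (47.2 ± 2.27) and CA12 (40.1 ± 1.05) were highest, VEGFA stood at 2.75 ± 0.197 and ANKRD37, at 0.328 ± 0.0203, was lowest of all 38. GAPDH, ENO1, ALDOA, PKM, TPI1, LDHA, PGAM1 and PGK1 have near-identical pseudogene copies with which reads can be shared, so their values carry that uncertainty.

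The first question was how the members moved within each extract from its lowest to its highest dose. At 500 µg/mL Glycyrrhizae, 27 of the 38 members were called, 12 higher and 15 lower (edgeR's quasi-likelihood test, adjusted p under 0.05). Of all 17764 genes tested 37% were called in that comparison, and 48.5% of those with a mean of at least 10 CPM, so calls were common across the whole transcriptome. The response was not in 1 direction: VEGFA, HK2 and ENO2 more than doubled, whereas STC1, CA9 and 9 of the 15 glycolytic enzymes fell. The median log2 change was -0.17 for the 15 enzymes, 0.27 for the 6 transport and control genes and 0.06 for the 17 other HIF targets, beside 0.00164 for all genes tested. All changes below are log2 ± SE.

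Among the glycolytic enzymes 4 rose and 9 fell, and the direction differed between copies of the same enzyme. Hexokinase traps glucose as glucose 6-phosphate. HK2 (ENSG00000159399, chromosome 2, 74833981 to 74893359 on GRCh38), its HIF-responsive form, had 2.57, 3.13 and 2.18 CPM in the low-dose libraries and 6.18, 7.15 and 6.67 at high dose. HK1, the ubiquitous form, had 429, 412 and 430 CPM at low dose and 327, 308 and 310.5 at high dose. Neither gene's groups overlapped: HK2 rose by 1.34 ± 0.14 (edgeR adjusted p = 1.08e-10) and HK1 changed by -0.43 ± 0.04 (edgeR adjusted p = 1.38e-12).

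Enolase makes phosphoenolpyruvate near the end of the pathway. ENO2 (ENSG00000111674, chromosome 12, 6913745 to 6923698), the copy best known from neurons, was at 7.21, 8.85 and 8.86 CPM at low dose and 18.2, 17.4 and 19.3 at high dose, a rise of 1.14 ± 0.10 (edgeR adjusted p = 2.8e-13). ENO1 was at 2408, 2592 and 2307 CPM at low dose and 1839, 1893 and 1925 at high dose, a change of -0.37 ± 0.06 (edgeR adjusted p = 1.27e-06). All 3 high-dose libraries thus lay above the low-dose ones for ENO2 and below them for ENO1.

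Aldolase splits fructose 1,6-bisphosphate. ALDOC (ENSG00000109107, chromosome 17, 28573115 to 28577264) was at 13.6, 12.1 and 14.48 CPM at low dose and 21.8, 24.0 and 22.4 at high dose (0.76 ± 0.10; edgeR adjusted p = 1.77e-08). ALDOA, the main form, gave 1843, 1617 and 1828 CPM against 1685, 1584 and 1461. These ALDOA groups overlapped, and its change of -0.16 ± 0.06 (edgeR adjusted p = 0.0251) lost its call without low replicate 1, low replicate 3, high replicate 2 or high replicate 3, with edgeR adjusted p = 0.121, 0.11, 0.0504 and 0.182. Of the phosphofructokinases, which commit sugar to glycolysis, PFKP rose (0.44 ± 0.04; edgeR adjusted p = 1.28e-12) and PFKL was at -0.03 without a call.

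LDHA, PKM, GPI, PGK1, TPI1 and PGAM1 also fell. LDHA (ENSG00000134333, chromosome 11, 18394388 to 18408425), which turns pyruvate into lactate, had 1780, 1817 and 1894 CPM at low dose and 1337, 1288 and 1360 at high dose. That is a change of -0.46 ± 0.05 (edgeR adjusted p = 8.94e-11), with no overlap between the groups. PKM, which makes pyruvate, changed by -0.40 ± 0.05, GPI, the isomerase after hexokinase, by -0.34 ± 0.05, and PGK1, the first ATP-making kinase, by -0.26 ± 0.06. TPI1 (-0.25 ± 0.05) and PGAM1 (-0.17 ± 0.04), an isomerase and a mutase of the middle of the pathway, completed these 6. GAPDH, the most abundant enzyme, was not called, with 7666, 6394 and 7615 CPM at low dose and 7660, 6896 and 6729 at high dose.

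**Figure D1:**
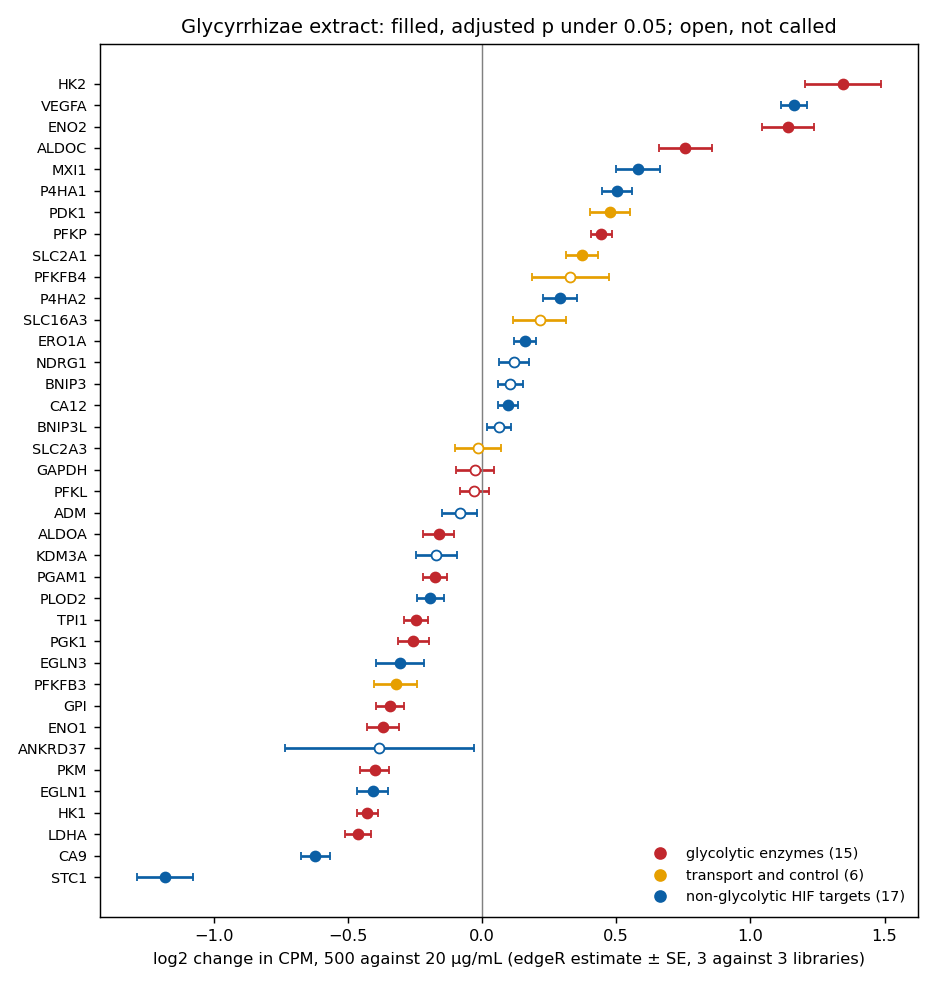
Log2 change in CPM of the 38 members between 20 and 500 µg/mL Glycyrrhizae (horizontal axis; points are edgeR estimates, bars are SEs, 3 against 3 libraries), coloured by role. HK2 (1.34), VEGFA (1.16) and ENO2 (1.14) sit at the top, STC1 (-1.18) and CA9 (-0.62) at the bottom, and 27 points are filled, meaning adjusted p under 0.05.

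Of the 6 transport and control genes, 2 rose and 1 fell. PDK1 (ENSG00000152256), the kinase that shuts pyruvate out of mitochondrial oxidation, was at 22.1, 22.2 and 22.3 CPM at low dose and 29.5, 32.2 and 31.0 at high dose (0.48 ± 0.07; edgeR adjusted p = 9.24e-07). SLC2A1, the glucose transporter GLUT1, was at 73.8, 76.3 and 71.9 CPM and then at 95.7, 96.8 and 94.7 (0.37 ± 0.06; edgeR adjusted p = 1.46e-06). In both genes every high-dose library exceeded every low-dose one. PFKFB3, which makes the activator of phosphofructokinase, fell by 0.32 on the log2 scale (SE 0.08), while its relative PFKFB4, the second glucose transporter SLC2A3 and the lactate exporter SLC16A3 were not called.

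The non-glycolytic HIF targets divided, with 6 higher, 5 lower and 6 not called. VEGFA (ENSG00000112715, chromosome 6, 43770184 to 43786487), the vascular growth factor, was at 37.4, 38.2 and 38.1 CPM at low dose and 32.9, 34.2 and 35.9 at medium dose. At high dose it reached 83.6, 84.5 and 86.6 CPM, a rise of 1.16 ± 0.05 over low dose (edgeR adjusted p = 4.74e-24). The high-dose libraries stood well clear, and the medium-dose ones lay below all of the low-dose ones. Also higher were MXI1, an antagonist of MYC (0.58 ± 0.08), P4HA1 (0.50 ± 0.05) and P4HA2 (0.29 ± 0.06), collagen prolyl hydroxylases, and ERO1A (0.16 ± 0.04), an oxidase of the endoplasmic reticulum. CA12 was called at 0.10 ± 0.04, and that call was lost without high replicate 1 (edgeR adjusted p = 0.215) or low replicate 2 (edgeR adjusted p = 0.214).

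STC1 and CA9 fell in steps across all 3 doses. STC1 (ENSG00000159167, chromosome 8, 23841915 to 23854807), the secreted glycoprotein stanniocalcin, was at 32.2, 32.5 and 37.6 CPM at low dose, 20.4, 21.6 and 22.6 at medium and 14.63, 16.08 and 14.53 at high dose. None of its dose groups overlapped, and the high-dose change was -1.18 ± 0.10 (edgeR adjusted p = 5.51e-13). CA9 (ENSG00000107159, chromosome 9, 35673856 to 35681159), a carbonic anhydrase of the cell surface, was at 73.0, 75.7 and 76.2 CPM, then 64.5, 58.1 and 56.2, then 52.0, 47.1 and 47.05. Its groups did not overlap either (high against low -0.62 ± 0.05; edgeR adjusted p = 3.37e-13). These 2 were the only members called between medium and low dose of Glycyrrhizae, STC1 at -0.67 ± 0.10 (edgeR adjusted p = 3.58e-05) and CA9 at -0.33 ± 0.05 (edgeR adjusted p = 0.000116), in a comparison with 0.788% of all genes called.

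The oxygen-sensing hydroxylases EGLN1 (-0.41 ± 0.06) and EGLN3 (-0.31 ± 0.09) fell, as did the collagen lysyl hydroxylase PLOD2 (-0.19 ± 0.05). The EGLN3 call was lost without low replicate 2 (edgeR adjusted p = 0.0684). NDRG1, a widely used hypoxia marker, was at 114, 111 and 116 CPM at low dose and 134, 118 and 117 at high dose without overlap, yet was not called (0.12 ± 0.06; edgeR adjusted p = 0.102). ADM, the vasodilator peptide adrenomedullin, was likewise not called, at 16.6, 19.5 and 17.4 CPM against 16.7, 16.9 and 16.9. The mitophagy receptors BNIP3 and BNIP3L, the histone demethylase KDM3A and ANKRD37 made up the rest of the uncalled targets.

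**Figure D2:**
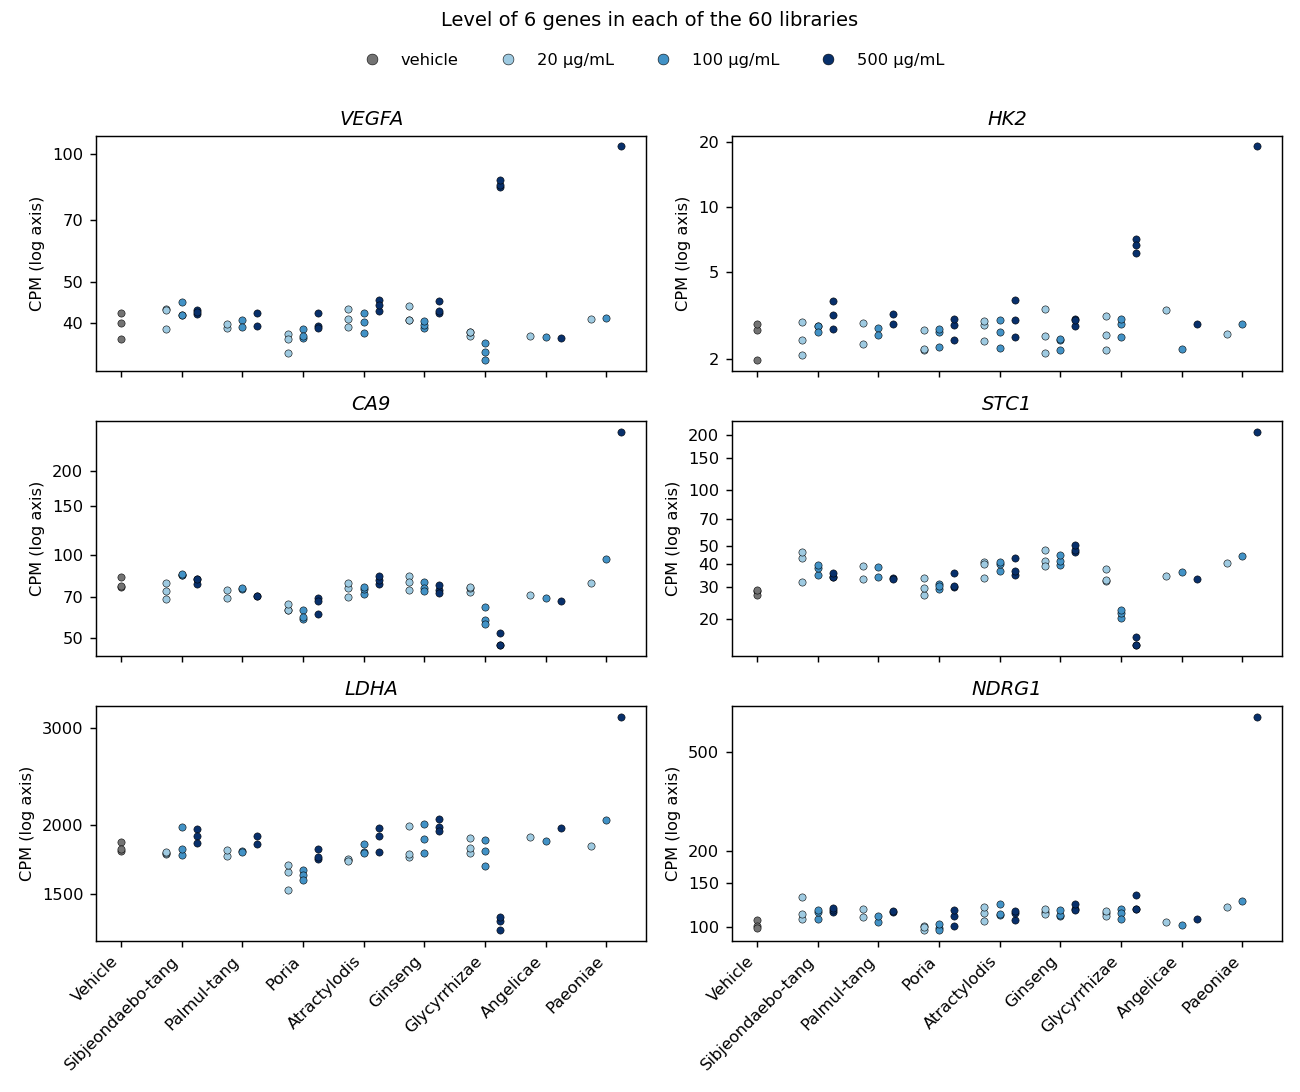
Levels of VEGFA, HK2, CA9, STC1, LDHA and NDRG1 in each of the 60 libraries (CPM on a log axis; each point is 1 library, shaded by dose, with the vehicle in grey). Only high-dose Glycyrrhizae and high-dose Paeoniae leave the common band for VEGFA and HK2, and for CA9, STC1 and LDHA those same libraries lie at opposite ends.

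Among the regulators and neighbours of the pathway, listed separately by name, the same mixture appeared at high Glycyrrhizae dose. Of 13 HIF subunit and oxygen-sensing genes 2 rose and 4 fell: VHL changed by 0.21 ± 0.07, HIF1A by 0.19 ± 0.07, RBX1, a subunit of the VHL ligase, by -0.31 ± 0.10, and CITED2, which competes with HIF for its co-activator, by -0.22 ± 0.08. The VHL call was lost without low replicate 3 (edgeR adjusted p = 0.15), the RBX1 call without high replicate 3 (edgeR adjusted p = 0.0736), and the CITED2 call without low replicate 1, low replicate 3 or high replicate 2 (edgeR adjusted p = 0.063, 0.229 and 0.0785). HIF3A, an alpha subunit at very low level, was at 0.869, 0.966 and 1.34 CPM at low dose and 0.417, 0.349 and 0.224 at high dose, a change of -1.68 ± 0.30. Of the other glycolysis and pyruvate genes 4 rose and 11 of 20 tested fell. The pyruvate carrier subunit MPC2 changed by -0.80 ± 0.08, the kinase PDK2 by -0.62 ± 0.10 and the glucose transporter SLC2A12 by -0.49 ± 0.15, while PDK3 rose by 0.43 ± 0.10. Of 33 other HIF-responsive genes tested 11 rose and 8 fell. Among the largest were NDUFA4L2, a mitochondrial protein (2.94 ± 0.29, from 0.340, 0.386 and 0.422 CPM to 2.99, 3.18 and 2.76), the lipoprotein receptor VLDLR (1.81 ± 0.06) and the lysyl oxidase relative LOXL2 (1.43 ± 0.06).

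The summed level of 8 A549 epithelial markers was 16221 to 16402 CPM in the low-dose and 13567 to 13827 CPM in the high-dose Glycyrrhizae libraries. Of these markers 6 of 8 were called lower and 1 higher, in a comparison with 18.4% of all genes called lower and 18.5% higher. Of the other cell types' markers, COL3A1 (-1.70 ± 0.12), DCN (-0.30 ± 0.10) and KDR (-0.76 ± 0.07) were lower and CD14 (0.50 ± 0.14) higher. Their summed levels went from 15.5 to 17.8 CPM at low dose to 10.4 to 11.0 at high dose for the fibroblast list, from 21.2 to 22.1 to 12.6 to 13.0 for the endothelial list and from 2.40 to 2.91 to 3.34 to 3.99 for the leukocyte list. The part of these shifts in the members' changes was not tested.

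Ginseng carried the same set of sample codes as Glycyrrhizae and served to test whether the dose change differed between extracts. The difference between the 2 extracts' high against low changes was called for 22 of 38 members, 8 higher and 14 lower in Glycyrrhizae (edgeR interaction). Of all genes 21% were called, and 29.6% of those averaging 10 CPM or more. The called members were 12 of 15 glycolytic enzymes (3 higher, 9 lower), 1 of 6 transport and control genes and 9 of 17 HIF targets (4 higher, 5 lower). STC1 differed by -1.35 ± 0.14 (edgeR adjusted p = 1.44e-10), HK2 by 1.22 ± 0.22 (edgeR adjusted p = 2.17e-05), VEGFA by 1.11 ± 0.07 (edgeR adjusted p = 5.06e-17) and LDHA by -0.58 ± 0.07 (edgeR adjusted p = 5.34e-09). ALDOC, at 0.16 ± 0.14, did not pass the test, and it was called higher in both extracts. Against the mean of the other 5 replicated extracts 26 members differed, 10 higher and 16 lower (32.4% of all genes called and 43.8% of those averaging 10 CPM or more).

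The other 5 replicated extracts moved few members, the changes called in the fit of all libraries were rises, and PFKP was the gene called most often. PFKP (ENSG00000067057, chromosome 10, 3066333 to 3137712), the platelet-type phosphofructokinase, passed the test in 5 of the 6 replicated extracts, Glycyrrhizae included. With Sibjeondaebo-tang it was the only member called (1 of 38; 3.78% of all genes called), at 203, 199 and 218 CPM at low dose and 228, 236 and 234 at high dose (0.17 ± 0.04; edgeR adjusted p = 0.00677). The groups did not overlap, but leaving out low replicate 2 ended the call (edgeR adjusted p = 0.0723), as did omitting the filter on low counts (edgeR adjusted p = 0.0777) or fitting only the compared groups (edgeR adjusted p = 0.0881). Leaving out low replicate 1 or 3 gave 2 and 3 called members. STC1, at -0.22 ± 0.09 and not called here, was called lower without low replicate 1, without the filter and with the replicate block. With Palmul-tang no member was called by edgeR or DESeq2 (2.08% of all genes called by edgeR, 6 members at an unadjusted p under 0.05). There PFKP was at 211 and 203 CPM at low dose and 230 and 222 at high dose.

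Poria raised 3 of 38 members (1.55% of all genes called). BNIP3 (ENSG00000176171), the mitophagy receptor, was at 56.6, 59.9 and 56.4 CPM at low dose and 70.0, 71.3 and 71.4 at high dose (0.30 ± 0.05; edgeR adjusted p = 0.000113). PFKP was at 195, 212 and 207 CPM and then at 256, 243 and 235 (0.26 ± 0.04; edgeR adjusted p = 0.000111). ALDOC was at 10.7, 10.6 and 10.6 CPM and then at 12.3, 14.7 and 17.03 (0.47 ± 0.11; edgeR adjusted p = 0.00976). In all 3 genes the groups stood apart, and the ALDOC call was lost without high replicate 3 (edgeR adjusted p = 0.172) and when only the compared groups were fitted (edgeR adjusted p = 0.069). With the replicate number as a block, 7 members were called, adding CA12, GPI, PDK1 and VEGFA. That block was shared with Atractylodis, which carries the same set of sample codes.

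Ginseng raised 5 of 38 members (1.2% of all genes called), led again by ALDOC. That aldolase was at 17.1, 13.9 and 14.7 CPM at low dose and 24.4, 23.3 and 21.3 at high dose (0.60 ± 0.10; edgeR adjusted p = 0.000206). P4HA1 was at 41.1, 40.3 and 43.6 CPM and then at 48.9, 48.5 and 52.0 (0.26 ± 0.06; edgeR adjusted p = 0.00847). Both genes' groups were clear of each other. PLOD2 rose by 0.21 ± 0.05, CA12 by 0.18 ± 0.04 and PFKP by 0.16 ± 0.04. All 5 kept their call with the replicate number as a block, shared with Glycyrrhizae. The PFKP call was lost without high replicate 1 or 2 or low replicate 2 or 3 (edgeR adjusted p from 0.0665 to 0.188). Omitting the filter on low counts (edgeR adjusted p = 0.239) or fitting only the compared groups (edgeR adjusted p = 0.504) also ended it. ALDOC alone was called whichever Ginseng library was left out: 2 members were called without high replicate 1, 3 without low replicate 1, 5 without high replicate 2 (PFKP not among them), 1 without low replicate 2, 3 without high replicate 3 and 4 without low replicate 3.

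Atractylodis raised 2 of 38 (0.208% of all genes called). PFKP was at 203, 207 and 212 CPM at low dose and 238, 248 and 236 at high dose (0.22 ± 0.04; edgeR adjusted p = 0.00287), and PLOD2 at 284, 290 and 275 CPM and then 321, 332 and 341 (0.23 ± 0.05; edgeR adjusted p = 0.0264). The groups of both were separate. Yet the PLOD2 call was lost whichever of the 6 libraries was left out (edgeR adjusted p from 0.051 to 0.192), and that of PFKP without high replicate 2 (edgeR adjusted p = 0.0673), which left 0 members called.

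Of the neighbouring HIF-responsive genes, the lipid-handling factor ANGPTL4 rose in Sibjeondaebo-tang (0.24 ± 0.07), Poria (0.38 ± 0.07), Atractylodis (0.52 ± 0.07) and Ginseng (0.42 ± 0.07). LOXL2 rose in the same 4 extracts, by 0.21 ± 0.06, 0.29 ± 0.06, 0.34 ± 0.06 and 0.29 ± 0.06. With Sibjeondaebo-tang the ANGPTL4 call was lost without low replicate 1 or 2 or high replicate 2 or 3 (edgeR adjusted p from 0.0533 to 0.382), and the LOXL2 call without any low replicate or high replicate 2 or 3 (edgeR adjusted p from 0.0523 to 0.13). With Poria both were lost without low replicate 1 (edgeR adjusted p = 0.0607 and 0.0747), and with Ginseng the LOXL2 call without high replicate 1 (edgeR adjusted p = 0.0677). In all, 2 of 33 such genes rose with Sibjeondaebo-tang and 1 fell, 3 rose and 1 fell with Poria, and 4 rose with Atractylodis and 4 with Ginseng. No difference between Poria and Atractylodis or between Sibjeondaebo-tang and Palmul-tang was called by edgeR or DESeq2 in any of the 38 members (0.0732% and 0% of all genes called by edgeR), with 3 and 1 members at an unadjusted p under 0.05. Between medium and low dose no member was called by edgeR in these 5 extracts (0.0788% of all genes called with Sibjeondaebo-tang and 0% with the others), with 6 members at an unadjusted p under 0.05 for Sibjeondaebo-tang, 1 each for Poria and Atractylodis and 0 for Palmul-tang and Ginseng. DESeq2 called 1 member there with Sibjeondaebo-tang and 0 with the others.

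**Figure D3:**
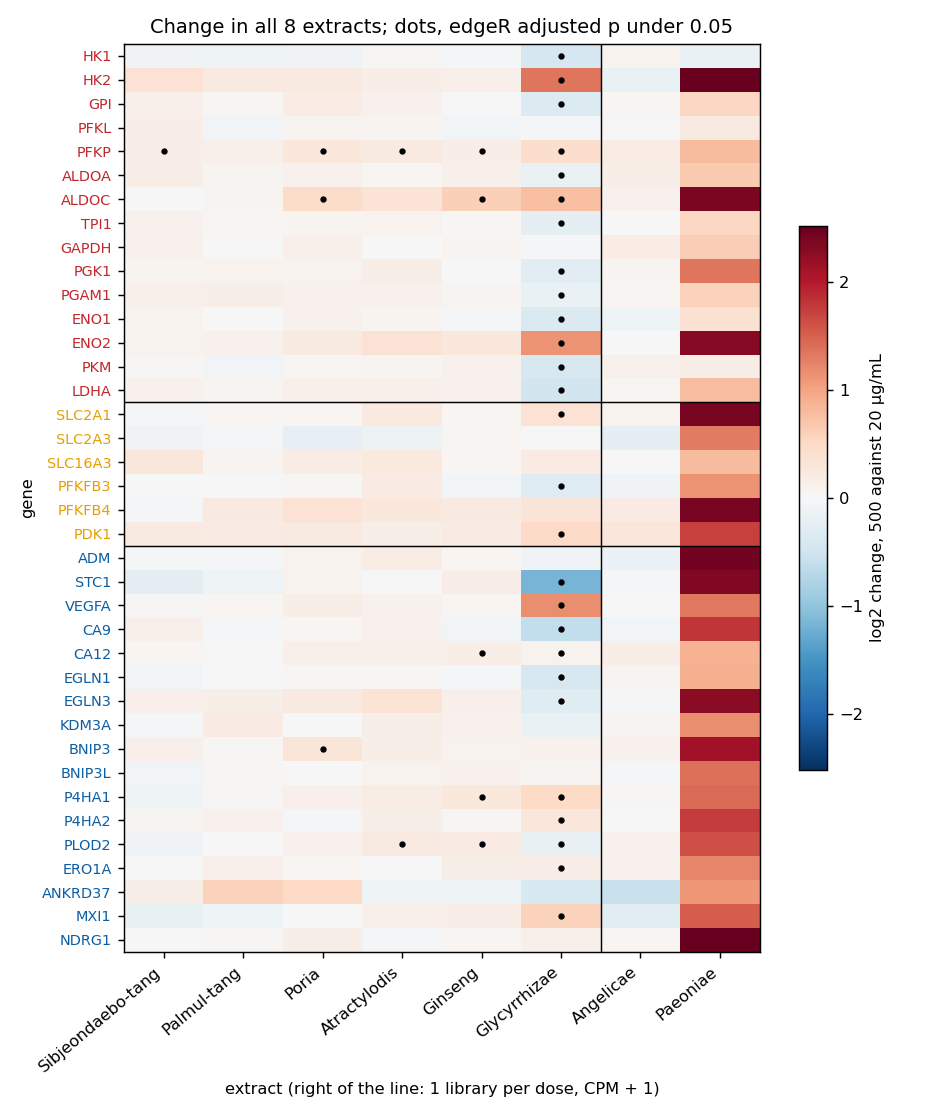
Log2 change of each member (rows, grouped and coloured by role) between 20 and 500 µg/mL in the 8 extracts (columns); dots mark edgeR adjusted p under 0.05, and the columns right of the line have 1 library per dose and no test. The Paeoniae column is red for 37 of 38 genes, the Glycyrrhizae column has 12 called rises and 15 called falls, and the remaining columns are pale.

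Most of the highest member levels of the study, for 33 of 38 genes, were in the single library of 500 µg/mL Paeoniae. Of the 38 members 31 were at least 1.5-fold above the 20 µg/mL library and 0 were 1.5-fold below it, on the log2(CPM + 1) scale used for both unreplicated extracts. Of all tested genes 9.61% were that much higher and 9.65% that much lower. The median log2 ratio of the members was 1.32, beside 0 for all tested genes, and the 33 exceeded every one of the other 59 libraries, as did 20.6% of all tested genes. With 1 library per dose there is no replicate check and no test, and the intervals below cover counting error only. The 20 µg/mL library itself held the lowest level of all libraries for SLC2A1, PFKP, SLC16A3, ADM, PFKL and P4HA2. It lay above the vehicle range for STC1, P4HA1, BNIP3L, NDRG1, PLOD2, ERO1A, PDK1, SLC2A3, PFKFB4, ALDOC, CA12, EGLN1 and MXI1. Against the vehicle means, SLC16A3 (298 and 264 CPM) and PFKP (318 and 234) stayed under 1.5-fold at 500 µg/mL. So did ALDOA (2918 and 2109) and GAPDH (11270 and 8928). The other members that passed 1.5-fold over 20 µg/mL also passed it over the vehicle mean. The members named for this extract were chosen after their values were seen.

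All 17 non-glycolytic HIF targets and all 6 transport and control genes passed 1.5-fold, with medians of 1.52 each, against 8 of 15 glycolytic enzymes, with a median of 0.62. NDRG1 (ENSG00000104419, chromosome 8, 133237171 to 133302022) went from 119 CPM at 20 µg/mL and 127 at 100 µg/mL to 691 at 500 µg/mL, a 5.78-fold difference (95% exact counting interval 5.54 to 6.04). ADM went from 13.8 and 19.1 to 79.2 CPM (5.75-fold, 5.06 to 6.56) and STC1 from 40.5 and 44.2 to 208 CPM (5.13-fold, 4.75 to 5.53). At 100 µg/mL the log2 ratios were 0.09 for NDRG1, 0.12 for STC1 and 0.45 for ADM. EGLN3, the hydroxylase that HIF induces in feedback, had 19.6, 24.6 and 99.0 CPM, BNIP3 had 67.1, 74.9 and 296, and CA9 had 78.9, 96.1 and 279. VEGFA had 40.9, 41.2 and 104 CPM, a 2.54-fold difference (2.34 to 2.76). The smallest ratios among the HIF targets were those of EGLN1 (log2 0.89) and CA12 (0.88).

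Uptake and control genes followed the same course. SLC2A1 was at 60.9, 84.5 and 323 CPM over the 3 doses (5.30-fold, 4.99 to 5.64), and PFKFB4, at 6.39, 6.28 and 37.97 CPM, was 5.94-fold higher at 500 µg/mL (4.92 to 7.23). PDK1 reached 70.5 CPM from 20.7 and 27.8. The smallest of the 6 ratios was that of SLC16A3, at 171, 217 and 298 CPM, and it was the 1 gene of the 6 whose high-dose level did not exceed every other library.

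Of the hexokinases, enolases and aldolases the less abundant copy had the larger ratio, and of the phosphofructokinases the more abundant one, PFKP (log2 0.80, against 0.24 for PFKL). HK2 was at 2.595, 2.89 and 19.1 CPM (7.37-fold, 5.51 to 10.1), whereas HK1 was at 433, 414 and 385 CPM (0.889-fold, 0.862 to 0.917), the only member lower than at 20 µg/mL. ENO2 was at 8.18, 9.80 and 44.1 CPM and ENO1 at 2050, 2450 and 2680. ALDOC was at 14.7, 22.4 and 79.7 CPM and ALDOA at 1840, 2000 and 2920. The ratios were therefore 5.39 and 1.31 for the enolases and 5.43 and 1.59 for the aldolases. PGK1 reached 1420 CPM from 556 and 789, LDHA 3150 from 1830 and 2050, and GAPDH, often taken as a reference gene, 11300 from 7320 and 7860. GAPDH (log2 0.62) lay just inside 1.5-fold and PGAM1 (0.57) just outside, with TPI1, GPI, ENO1, PFKL, PKM and HK1 below.

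**Figure D4:**
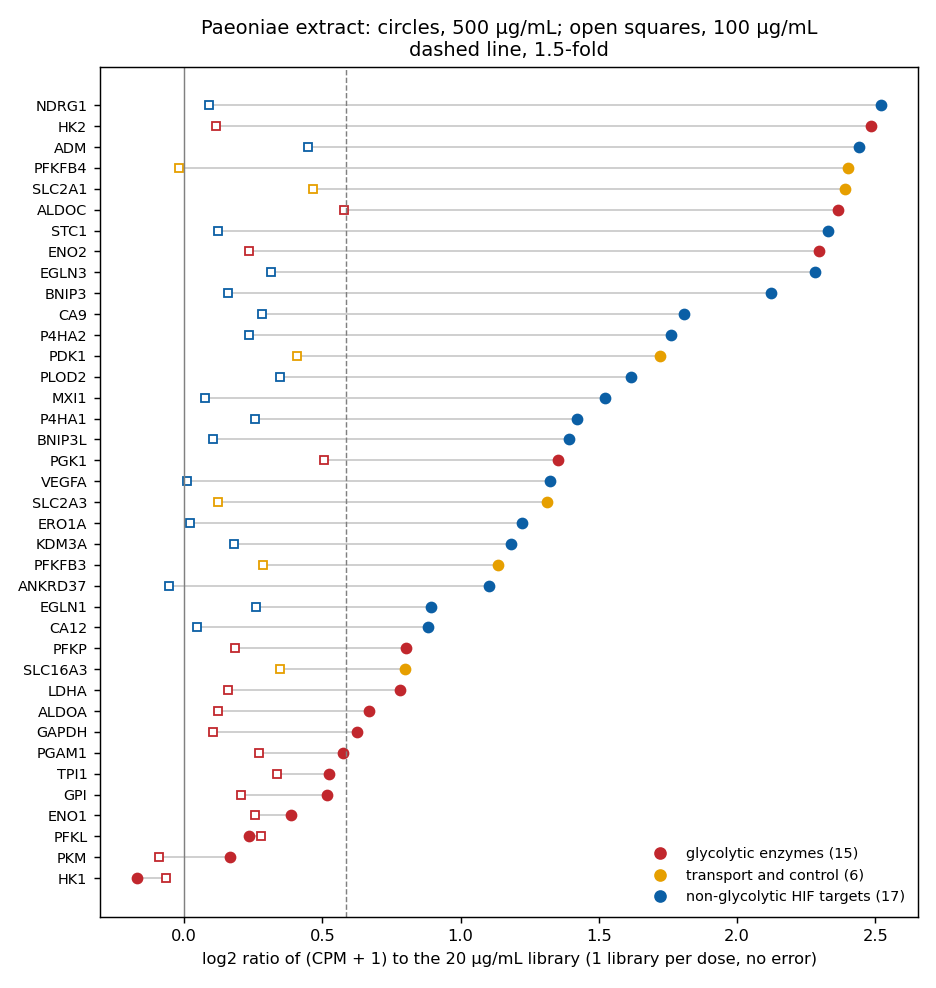
Log2 ratio of (CPM + 1) to the 20 µg/mL Paeoniae library for each member, at 100 µg/mL (open squares) and 500 µg/mL (circles), coloured by role; 1 library per dose, so there are no error bars. At 100 µg/mL no gene reaches the dashed 1.5-fold line, and at 500 µg/mL 31 of 38 pass it.

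The members' median log2 ratio to 20 µg/mL was 0.19 at 100 µg/mL and 1.32 at 500 µg/mL, beside 0.004 and 0 for all tested genes. At 100 µg/mL 0 of 38 members were 1.5-fold apart from 20 µg/mL, which cannot be set apart from the 1.52% of all tested genes. ALDOC (0.58), PGK1 (0.50) and SLC2A1 (0.47) had the highest ratios there, and HK1, PKM, PFKFB4 and ANKRD37 were lower than at 20 µg/mL. The listed neighbours showed where the change was broad. Of 33 other HIF-responsive genes tested 24 were at least 1.5-fold higher and 0 lower, among them ANGPTL4 (39.0, 44.0 and 264 CPM) and LOXL2 (31.1, 44.8 and 207). Of the other glycolysis and pyruvate genes 3 of 20 were higher and 1 lower. The transcript of HIF1A itself, the main alpha subunit, went down over the doses, from 543 and 455 to 226 CPM (0.416-fold, 0.401 to 0.43), and EPAS1, the other main alpha subunit, went from 313 and 328 to 438 CPM. The library total at 500 µg/mL, 22441129 counts, lay within the range of the rest. The summed epithelial markers were at 15124, 15939 and 12468 CPM over the 3 doses, the last the lowest of all 60 libraries, and the part of this in the members' levels was not tested.

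The calls with Glycyrrhizae were set beside the Paeoniae ratios. All 12 members called higher with Glycyrrhizae were also at least 1.5-fold higher with Paeoniae. Of the 15 called lower with Glycyrrhizae, 9 were at least 1.5-fold higher with Paeoniae, STC1, CA9 and LDHA among them, and the other 6 (HK1, GPI, TPI1, PGAM1, ENO1 and PKM) were not. Of the 11 not called, 10 were that much higher. Over all tested genes the shares were 21.2% of those called higher with Glycyrrhizae, 5.32% of those called lower and 7.47% of those not called. NDRG1 and ADM, among the largest Paeoniae ratios, were not called with Glycyrrhizae. Because Paeoniae had 1 library per dose, the difference between the extracts was not tested.

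The RefSeq promoter table (GRCh38.p14; 250 bases before to 50 after the start site) held 33 of the 38 members. The promoters of SLC2A3, STC1, VEGFA, BNIP3L and NDRG1 were not examined. HIF binds the core ACGTG or GCGTG, and either was found on either strand in 22 of the 33 promoters (66.7%), beside 43.2% of all 35116 promoters of that length. ACGTG was in 15 (45.5%, beside 18.5% of all) and GCGTG in 13 (39.4%, beside 32.2%), with some promoters, such as those of HK2 and PGK1, in both counts. CACGTG, an E-box that contains ACGTG on both strands, was in 5 (15.2%, beside 6.34%). By role, a core was found in 10 of 15 glycolytic enzymes, 2 of 5 transport and control genes and 10 of 13 HIF targets. Such a match is a description of the letters, not a binding site. Shown because they span from many matches to none among members that were higher with Paeoniae (PGK1 and PFKFB3 chosen after their values were seen) are the stretches upstream of BNIP3 (chr10:131982014-131982173, minus strand), PLOD2 (chr3:146161185-146161434, minus strand), PGK1 (chrX:78103998-78104173, plus strand), LDHA (chr11:18394313-18394387, plus strand), PFKFB3 (chr10:6144671-6144920, plus strand) and PDK1 (chr2:172555123-172555372, plus strand). Each begins 250 bases before the RefSeq start and stops at the first base of any GENCODE 29 exon or at the start. They are written 5′ to 3′ on the gene's strand, and capitals mark the cores, CACGT and CACGC being the same cores read from the other strand.
BNIP3: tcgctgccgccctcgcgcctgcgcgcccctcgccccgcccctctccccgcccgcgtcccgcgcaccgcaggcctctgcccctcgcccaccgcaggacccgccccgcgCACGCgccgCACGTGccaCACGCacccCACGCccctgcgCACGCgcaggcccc
PLOD2: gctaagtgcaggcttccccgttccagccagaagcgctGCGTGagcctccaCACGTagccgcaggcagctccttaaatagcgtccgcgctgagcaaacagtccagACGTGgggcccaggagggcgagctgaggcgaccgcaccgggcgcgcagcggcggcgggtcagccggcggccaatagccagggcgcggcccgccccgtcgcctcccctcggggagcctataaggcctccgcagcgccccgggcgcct
PGK1: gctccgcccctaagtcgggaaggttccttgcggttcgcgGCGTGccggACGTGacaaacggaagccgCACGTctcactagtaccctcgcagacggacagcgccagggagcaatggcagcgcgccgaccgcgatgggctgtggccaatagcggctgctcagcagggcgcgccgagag
LDHA: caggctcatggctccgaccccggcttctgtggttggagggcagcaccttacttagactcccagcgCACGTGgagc
PFKFB3: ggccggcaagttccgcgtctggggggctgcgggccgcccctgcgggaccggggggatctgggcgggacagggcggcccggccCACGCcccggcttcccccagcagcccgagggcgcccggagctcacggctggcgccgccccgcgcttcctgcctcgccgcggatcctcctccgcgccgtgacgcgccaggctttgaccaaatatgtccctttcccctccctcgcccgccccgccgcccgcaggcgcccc
PDK1: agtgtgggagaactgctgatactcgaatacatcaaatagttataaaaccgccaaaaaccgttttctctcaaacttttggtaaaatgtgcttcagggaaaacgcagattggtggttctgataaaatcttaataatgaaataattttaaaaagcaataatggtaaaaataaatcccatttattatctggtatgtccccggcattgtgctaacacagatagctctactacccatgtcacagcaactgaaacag
A CACGTG counts as 2 matches, 1 per strand. BNIP3 held 6 matches in its 160 bases, 2 of them from 1 CACGTG, and PLOD2 and PGK1 held 3 each. LDHA held the 2 strands of 1 CACGTG, PFKFB3 1 match and PDK1 none. The stretches differ in length, and in its whole 250 bases LDHA held 5 matches, with 2 CACGTG each counted on both strands. With Paeoniae these genes differed between 500 and 20 µg/mL by the following folds, BNIP3 at 4.41-fold, PDK1 at 3.40, PLOD2 at 3.07, PGK1 at 2.56, PFKFB3 at 2.21 and LDHA at 1.72.

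Angelicae, also with 1 library per dose, moved no member by 1.5-fold on the log2(CPM + 1) scale (0 of 38; 0.771% of all tested genes were that far apart in either direction). The largest ratios were those of PDK1 (21.1, 22.1 and 25.8 CPM; log2 0.28) and of ANKRD37 (1.70, 2.12 and 0.835 CPM; log2 -0.56, from 41 counts at low and 19 at high dose). ANKRD37 passes 1.5-fold with a pseudocount of 0.5 CPM (log2 -0.72). NDRG1 was at 104, 102 and 107 CPM and VEGFA at 37.4, 37.1 and 36.9 CPM. The members' median log2 ratio was 0.04.

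The last comparison set the extracts beside the vehicle, whose libraries carry a sample code of their own, so that extract exposure and the set of samples cannot be told apart. In the mean of the 6 replicated low doses 19 of 38 members differed from the vehicle, 9 higher and 10 lower (edgeR, 34.1% of all genes called and 52.8% of those averaging 10 CPM or more). The 2 roles took opposite directions: of the glycolytic enzymes 8 were lower and 0 higher (median log2 change -0.17), and of the HIF targets 8 were higher and 1 lower (median 0.13). GAPDH changed by -0.29 ± 0.05, TPI1 by -0.27 ± 0.03 and ALDOA by -0.24 ± 0.04. STC1 rose by 0.38 ± 0.08, PDK1 by 0.35 ± 0.06, P4HA1 by 0.33 ± 0.05 and PLOD2 by 0.25 ± 0.04, while CA9 changed by -0.11 ± 0.04. VEGFA (-0.0037 ± 0.04), HK2 (0.05 ± 0.13) and LDHA (-0.05 ± 0.04) were not called.

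At high dose against the same vehicle libraries 31 members were called with Glycyrrhizae (46.8% of all genes called), 23 with Ginseng (28.9%), 18 with Atractylodis (26.1%), 12 with Palmul-tang (22.2%), 11 with Sibjeondaebo-tang (15.2%) and 9 with Poria (16.3%). Among genes averaging 10 CPM or more, where most members lie, the shares called were higher, in the same order 63.1%, 46.5%, 42.4%, 36.5%, 25.1% and 27.2%, so the members' counts lay near them with Palmul-tang, Sibjeondaebo-tang, Atractylodis and Poria. These 6 comparisons share their control libraries. With Glycyrrhizae all 15 glycolytic enzymes were called, 4 higher and 11 lower, and VEGFA was at 1.09. With Ginseng 12 of 17 HIF targets were higher and 0 lower, while 3 enzymes were higher and 5 lower. The Palmul-tang count was 4 without high replicate 3 and 7 without vehicle replicate 2. The Sibjeondaebo-tang count was 7 without vehicle replicate 1 and the Poria count 5 without high replicate 2. Over the libraries left out the Atractylodis count was 12 to 20. The Ginseng count was then 17 to 20, always below the 23 of the full fit and nearer the 46.5% share.

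Across the 25 groups, on log2(mean CPM + 1), the genes whose pattern was most like that of VEGFA were CDCP1, a cell-surface glycoprotein (Pearson r = 0.985), PPP1R15A, a phosphatase subunit of the stress response (0.974), and the signalling adaptor GRB10 (0.968). For LDHA they were C4orf3 (0.95), the dehydrogenase DHRS2 (0.928) and the member CA9 (0.924). These values describe 25 groups, of which a few far-out ones weigh heavily. VEGFA was at 83.6 to 86.6 CPM in high-dose Glycyrrhizae, 104 in the single high-dose Paeoniae library and at most 45.3 elsewhere. LDHA was at 3148 CPM in that Paeoniae library and at most 2049 in any other.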

How the data were processed

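The authors deposited 1 table of expected counts per gene, estimated read counts that need not be whole (76% of values above 0 were whole within 1e-09), with no normalization. Per the submitters' processing notes, reads passed FastQC 0.11.9 and Trim Galore 0.6.5, and STAR 2.7.3a, RSEM 1.3.3 and GRCh38 were used. Which annotation was counted, and whether by strand, is not given in the sources used here, so a gene and an overlapping antisense gene may share reads. Of its columns 60 match these samples and 210 columns of per-sample values were not used. Symbols came from a gene name table for 56558 identifiers and from GENCODE 29 for the rest of 57055.

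Expected counts were rounded to whole numbers and fitted for all 60 libraries in 25 groups with edgeR 4.0.16 in R 4.3.3 (TMM scaling, filterByExpr, quasi-likelihood test, 35 residual degrees of freedom). This tested 17764 genes, and p-values were adjusted by Benjamini-Hochberg over all of them, with calls at 0.05. The SE of a log2 change is its size divided by the square root of the F statistic. CPM used the TMM-scaled totals, except for single marker genes, which used plain totals. The 51 pairs of libraries within groups differed by more than sampling noise (chi-square per degree of freedom 2.59 to 36.6), so each counted as 1 replicate. Angelicae and Paeoniae, with 1 library per dose, were described on log2(CPM + 1) with a threshold of 1.5-fold, and their intervals and those of other counts cover counting error only. The scripts were tested on simulated data.

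The 38 members, the pathway and marker lists and the naming rule were chosen with earlier results of these data known. Named per library were the called members with the largest changes (up to 10 or 5 per extract), 10 members of the Glycyrrhizae series, and up to 4 called pathway genes per list and comparison. Deviations from the group means correlated between same-numbered libraries of Poria (0.177, 0.416 and 0.244) and Ginseng (0.176, 0.201 and 0.336), so there the label numbers may pair libraries. The main fit did not use such a pairing. In the alternative fit with a replicate block, extracts of the same set of sample codes shared the block. Same-numbered correlations were -0.154, -0.102 and 0.15 for Atractylodis and 0.427, 0.267 and -0.167 for Glycyrrhizae. Alternatives were DESeq2 1.42.0, other scaling, no filter, only the compared groups, the replicate block, leaving out each library, and other pseudocounts. A wortmannin control was not analysed here.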

Additional observations from a re-analysis of the deposited data

Results flagged for a closer look

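The change from low to high dose differed between Glycyrrhizae and Ginseng, by the test of the difference itself (edgeR, adjusted p under 0.05), in 22 of 38 members. Of all genes tested 21% also differed, and 29.6% of those averaging 10 CPM or more. Values are the Glycyrrhizae minus the Ginseng log2 change, from 3 libraries per dose in each extract. Among the glycolytic enzymes the difference was positive for HK2 (1.22), ENO2 (0.88) and PFKP (0.28), and negative for LDHA (-0.58), PKM (-0.52), HK1 (-0.4), GPI (-0.34), ENO1 (-0.32), TPI1 (-0.28), ALDOA (-0.28), PGK1 (-0.26) and PGAM1 (-0.24). Among transport and control genes it was positive for SLC2A1 (0.33). Among the HIF targets it was positive for VEGFA (1.11), MXI1 (0.41), P4HA2 (0.25) and P4HA1 (0.25), and negative for STC1 (-1.35), CA9 (-0.54), EGLN3 (-0.43), PLOD2 (-0.41) and EGLN1 (-0.39).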

How the results depend on the processing

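Of 759 values of single genes recomputed under alternatives, 670 stayed on their side of the threshold, 88 lost their call, 1 gained one and 0 changed direction. Nearly all of these values belonged to genes already called in the main fit, which could lose a call but not gain one. The exceptions were NDRG1 and ADM with Glycyrrhizae, so the number gained says little. With Glycyrrhizae 435 stayed and 15 lost their call, whereas with the other extracts 235 stayed and 73 lost it. The counts of called members were least stable where few were called. Without the filter on low counts 2 members were called between high and low dose with Sibjeondaebo-tang (SLC16A3 higher and STC1 lower, PFKP not among them), 8 with Atractylodis and 3 with Ginseng. DESeq2 called 2 with Sibjeondaebo-tang, 5 with Poria and 5 with Atractylodis, and 1 between medium and low dose of Sibjeondaebo-tang. Fitting only the compared groups gave 0 with Atractylodis, 1 with Ginseng, 1 between medium and low dose of Glycyrrhizae and 7 for high-dose Sibjeondaebo-tang against the vehicle. With the replicate number as a block the counts between high and low dose were 6 with Sibjeondaebo-tang, 7 with Poria and 7 with Atractylodis, 1 between medium and low dose of Sibjeondaebo-tang, and against the vehicle 7 with Sibjeondaebo-tang and 4 with Palmul-tang. The block also called NDRG1 in Glycyrrhizae (0.12, edgeR adjusted p = 0.0409), and outside Poria and Ginseng the libraries share only a number. The cause of these shifts was not tested.

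With each library left out in turn, the members called between high and low dose numbered 0 to 3 with Sibjeondaebo-tang, 2 to 3 with Poria, 0 to 1 with Atractylodis, 26 to 28 with Glycyrrhizae and 1 to 5 with Ginseng. Against the vehicle they numbered 7 to 10 with Sibjeondaebo-tang, 4 to 11 with Palmul-tang, 5 to 8 with Poria and 17 to 20 with Ginseng. The median log2 change of the enzymes ranged from 0.069 to 0.139 with Sibjeondaebo-tang, 0.035 to 0.066 with Palmul-tang, 0.077 to 0.116 with Atractylodis, -0.211 to -0.178 with Glycyrrhizae and 0.031 to 0.092 with Ginseng, and that of the HIF targets from 0.028 to 0.131 with Poria and 0.025 to 0.086 with Glycyrrhizae. Counting the 6 transport and control genes with the enzymes gave medians of 0.131 with Atractylodis and -0.029 with Glycyrrhizae. With a pseudocount of 0.5 CPM, 1 member, ANKRD37, passed 1.5-fold with Angelicae.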
